A study of Mus musculus with 4 samples.

Results

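WT1 binding was examined at the 8 mouse Smad genes, Smad1, Smad2, Smad3, Smad4, Smad5, Smad6, Smad7 and Smad9, which were taken by name from a table of 21887 protein-coding genes. All 8 were found. WT1, a zinc-finger transcription factor, was mapped by chromatin immunoprecipitation followed by sequencing (ChIP-seq) in microdissected developing kidneys of wildtype mouse embryos at E18.5, from a mixed background described as C57Bl6 crossed with B6DBA/F1. An antibody against WT1 (C-19) was used for 2 samples and IgG, a control antibody with no chosen target, for 2 others, from 2 experiments that the labels call independent. The WT1 samples are called replicates 1 and 2, and values of IgG samples are not analysed here. The sources used here do not say whether embryos were pooled within a sample. The kidney was profiled whole, so a weak peak from few cells and one from weak binding in many cells cannot be told apart.

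Smad proteins carry signals of the transforming growth factor beta (TGF-beta) family from the cell membrane to the nucleus. Receptor-activated Smads are phosphorylated by the type I receptors, Smad2 and Smad3 by those for TGF-beta and activin, and Smad1, Smad5 and Smad9 by those for bone morphogenetic proteins (BMPs). They then join the common Smad, Smad4, and act on target genes, while the inhibitory Smads, Smad6 and Smad7, block the receptors or compete with the other Smads. In the kidney, BMP signalling supports nephron progenitors, and TGF-beta signalling through Smad3 is known for its part in fibrosis and podocyte injury.

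Each replicate has a list of peaks with a significance value, the authors' own p-value or q-value per peak, which is smaller for a stronger call. A further table lists 17234 regions found in both replicates, here called overlap regions, each with an irreproducible discovery rate (IDR), an error rate that is low when the replicates rank a region alike and high in their lists. Those whose IDR did not exceed 0.05 are named reproducible. A region or peak was counted for a gene when its midpoint lay in the gene or within 50 kb of it. Values came from 2 samples of a single group, so no test was possible and all counts are descriptions. No read counts were at hand, and the depth is unknown. The lists held 53132 peaks for replicate 1 and 57641 for replicate 2. As a check of the tissue, 8 of 10 podocyte marker genes, 3 of 6 nephron progenitor markers and 0 of 4 liver genes had a reproducible region by the same rule, beside 26.1% of all protein-coding genes. With only 4 liver genes, a count of 0 says little. Podxl and Cd2ap were the podocyte markers without any, and Cited1, Sall1 and Eya1 the progenitor markers.

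The RefSeq promoter table (GRCm38.p6, the assembly behind mm10) matched 5 of the 8 genes, Smad1, Smad3, Smad5, Smad6 and Smad9. The 250 bases before the start site are printed here, 5′ to 3′ on the strand of the gene, for the promoters of Smad3, Smad6 and Smad5, which overlap a WT1 region, and for that of Smad9, which does not. Capitals mark each match to TCCTCC or its reverse complement GGAGGA, a triplet repeat that WT1 is known to bind. The Smad3 stretch is chr9:63757995-63758244 (minus strand), the Smad6 stretch chr9:64022060-64022309 (minus strand), the Smad5 stretch chr13:56702760-56703009 (plus strand, the most upstream of 3 listed starts) and the Smad9 stretch chr3:54755332-54755581 (plus strand).
Smad3: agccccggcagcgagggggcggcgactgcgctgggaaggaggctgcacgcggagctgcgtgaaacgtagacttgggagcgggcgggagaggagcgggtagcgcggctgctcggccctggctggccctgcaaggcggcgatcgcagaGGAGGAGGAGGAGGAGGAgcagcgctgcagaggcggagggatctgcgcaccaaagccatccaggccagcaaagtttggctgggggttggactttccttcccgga
Smad6: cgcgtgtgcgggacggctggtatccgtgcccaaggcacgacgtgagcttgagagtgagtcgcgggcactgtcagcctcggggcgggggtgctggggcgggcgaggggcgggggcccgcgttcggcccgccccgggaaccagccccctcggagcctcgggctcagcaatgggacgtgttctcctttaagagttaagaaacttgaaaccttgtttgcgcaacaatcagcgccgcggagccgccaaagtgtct
Smad5: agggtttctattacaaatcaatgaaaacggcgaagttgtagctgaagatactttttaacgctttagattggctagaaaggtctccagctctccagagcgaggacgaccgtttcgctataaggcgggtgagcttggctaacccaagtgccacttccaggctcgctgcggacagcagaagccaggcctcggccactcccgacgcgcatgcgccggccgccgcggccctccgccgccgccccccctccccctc
Smad9: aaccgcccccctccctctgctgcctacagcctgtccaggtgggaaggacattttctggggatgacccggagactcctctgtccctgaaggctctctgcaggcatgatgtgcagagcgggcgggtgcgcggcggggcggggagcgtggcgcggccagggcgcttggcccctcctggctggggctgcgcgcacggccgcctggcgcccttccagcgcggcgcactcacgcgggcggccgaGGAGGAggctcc

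The Smad3 promoter held an unbroken run of 6 GGA triplets, which gives 5 overlapping matches to TCCTCC on the reverse strand, between 104 and 87 bases before the start. All 250 of these bases lay in a reproducible region, which spans 2 peaks of each replicate. The replicate 1 peak chr9:63757940-63758254 covered all 250. The replicate 2 peaks chr9:63757943-63758068 and chr9:63758089-63758939 left a gap that held part of the GGA run. A run of 6 or more such triplets, on either strand, was present in 40 of 32851 promoters of the same length (0.122%), a table in which genes with several starts appear several times. Smad9 had a single match, 12 to 7 bases before its start, and at least 1 match was present in 29.2% of all promoters. Smad1, Smad5 (all 3 starts) and Smad6 had no match. The letters GTGGGNG, the core of the G-rich site that WT1 shares with EGR1, were searched on both strands and were not in any of the 7 Smad promoter windows, against 28.1% of all promoters. The 8-base palindromic Smad-binding element was likewise not in these windows, and it was present in 0.167% of all promoters. A reproducible region overlapped 1.81% of all promoters and any overlap region 4.16%. Of the 5 genes in the promoter table, the Smad3 promoter was overlapped by a reproducible region, and those of Smad5 and Smad6 by regions above the threshold.

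Reproducible WT1 regions were found at 4 of the 8 Smad genes (50%), Smad3, Smad4, Smad6 and Smad7, where 26.1% of all protein-coding genes had at least 1. Smad3 had 5, Smad7 had 2, and Smad4 and Smad6 had 1 each, which makes 9 in all. Smad1, Smad2, Smad5 and Smad9 had none. The windows of the 8 genes ran from 129 to 211 kb, beside a median of 117 kb over all protein-coding genes, and a longer window can hold more regions. Inside the gene itself, 3 of the 8 (Smad3, Smad6 and Smad7) held a reproducible region, beside 7.95% of all protein-coding genes. The 8 genes are 28.6 to 111 kb long, each longer than the median protein-coding gene. The 7.95% is not matched for gene length, and length weighs more here than in the windows, which include the same flanks for every gene. For each of the 9 regions the Smad gene was the nearest protein-coding gene. Counting all overlap regions, Smad3 had 12, Smad6 had 8, Smad7 had 7, Smad1, Smad4 and Smad5 had 2 each, Smad2 had 1 and Smad9 had none, 34 in all. At least 1 overlap region was present at 7 of the 8 genes, against 57.0% of all protein-coding genes, and 9 of the 34 were reproducible (26.5%), close to the 25.6% of the whole table. The IDR values of the 34 left a gap around the threshold, the nearest below it being 0.00812 at Smad6 and the nearest above it 0.0617 at Smad7.

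**Figure D1:**
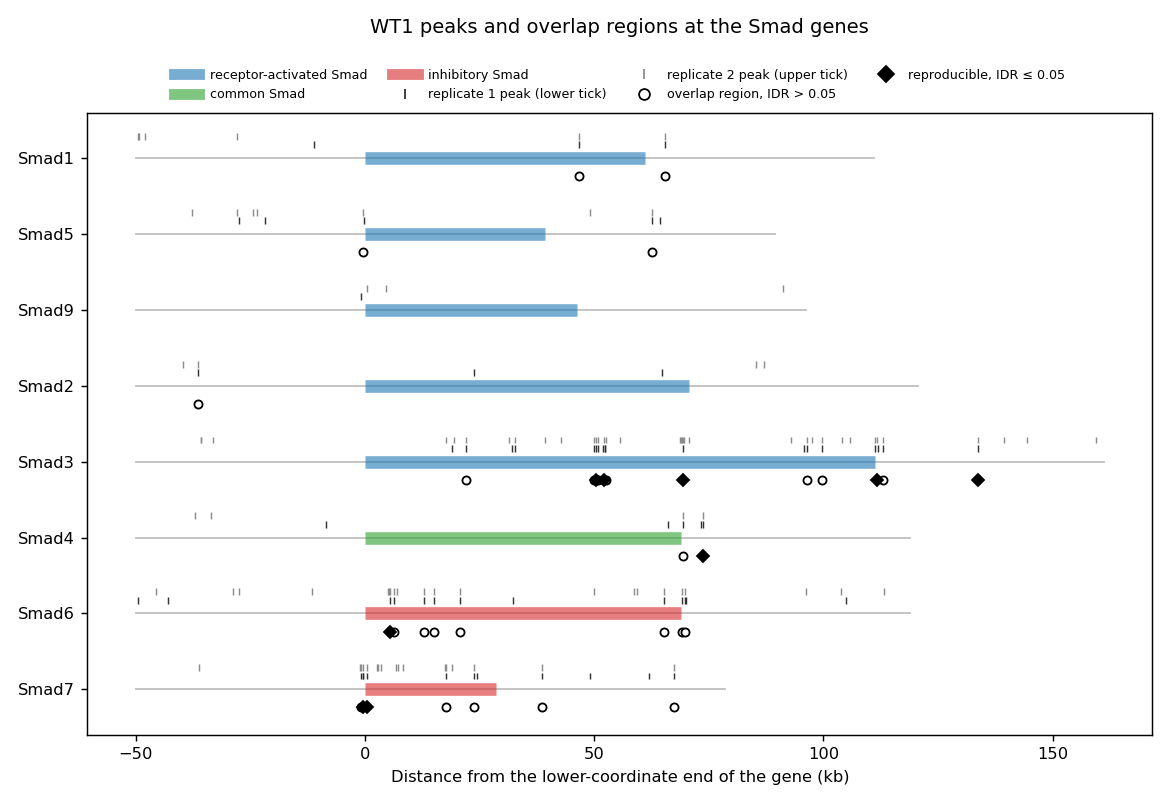
Positions of WT1 peaks and overlap regions along the 8 Smad genes, with distance from the lower-coordinate end of each gene on the x axis (kb). Thick bars are the genes, coloured by Smad class, thin lines the 50 kb on either side, ticks the peaks of replicates 1 and 2, open circles overlap regions above an IDR of 0.05 and diamonds reproducible regions. The diamonds lie at Smad3 (5), Smad7 (2), Smad4 (1) and Smad6 (1), and Smad9 has no circle or diamond.

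By class, the receptor-activated Smads had 5 reproducible regions over 5 genes, the common Smad 1 over 1 gene and the inhibitory Smads 3 over 2 genes. Smad3 held all 5 of the receptor-activated class, and its other 4 members had 0. The BMP-branch members Smad1, Smad5 and Smad9 together had 0 reproducible regions and 4 overlap regions in 447 kb of window. The TGF-beta-branch members Smad2 and Smad3 together had 5 reproducible and 13 overlap regions in 382 kb. Of these 13, Smad3 held 12 and Smad2 held 1. Smad2 alone had 0.586 overlap regions per 100 kb, below the 0.896 of the BMP branch, so the branch difference is that of Smad3. Both inhibitory Smads had a reproducible region. Per 100 kb of window, the reproducible regions came to 0.604 for the receptor-activated, 0.592 for the common and 1.01 for the inhibitory Smads, beside 0.265 over the windows of all protein-coding genes. For overlap regions the same densities were 2.05, 1.18, 5.04 and 0.933. Without Smad3, the receptor-activated class came to 0 reproducible and 0.810 overlap regions per 100 kb, so its densities rest on Smad3. Regions per gene were 1.5 times as many at inhibitory as at receptor-activated Smads, a ratio that rests on the 5 regions of Smad3. It is also moved by 1 library: from the strongest peaks of replicate 2 alone it was 2.5, and from those of replicate 1 alone 1.07. With classes of 5, 1 and 2 genes no test between classes was made.

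Every Smad gene had at least 1 peak in each replicate taken alone, as did 84.4% of all protein-coding genes in replicate 1 and 83.3% in replicate 2. Smad3, Smad6 and Smad7 had 18, 13 and 11 peaks in replicate 1 and 35, 21 and 17 in replicate 2. The other 5 genes had between 1 and 5 peaks in replicate 1 and between 3 and 7 in replicate 2. Per 100 kb of window, Smad7, Smad3 and Smad6 had 8.56, 8.52 and 7.69 peaks in replicate 1, beside 2.38 over all protein-coding genes. In replicate 2, Smad3, Smad7 and Smad6 had 16.6, 13.2 and 12.4 beside 3.16. Smad9 was lowest in both lists, at 0.684 and 2.05. Smad3 and Smad7 changed places between the replicates in this density, and Smad4 was above Smad1 in replicate 1 and below it in replicate 2.

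**Figure D2:**
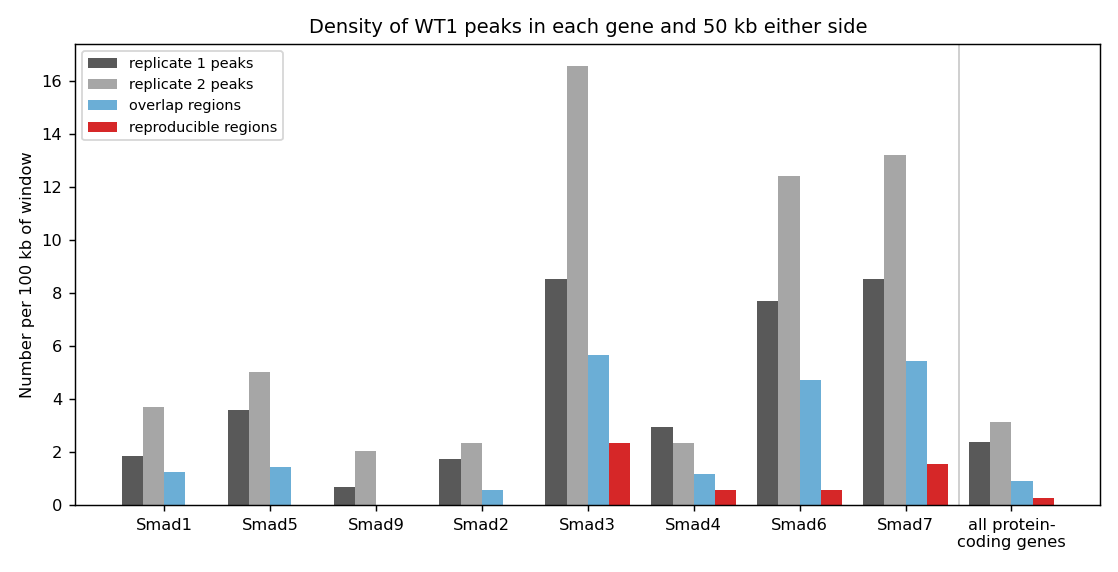
Number of WT1 peaks of each replicate, overlap regions and reproducible regions per 100 kb of window (the gene and 50 kb on either side) for each Smad gene and, at the right, over the windows of all protein-coding genes. The Smad3, Smad6 and Smad7 bars stand above all others in both replicates, and 4 genes have no bar for reproducible regions.

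Smad3, the transducer of TGF-beta and activin signals, is on the minus strand at chr9:63646766-63757994, and its start site is at the higher coordinate. The region at its promoter, chr9:63757940-63758939, was the widest of the 34 at 1000 bp and holds the promoter sequence shown above. Its significance values, here and for every region the smallest among the peaks it overlaps, were 1.82e-09 in replicate 1 and 9.53e-49 in replicate 2, and its IDR was 2.21e-05. The replicate 2 value was the smallest of any Smad region. In replicate 2 it placed the peak among the first 0.468% of the list, and the replicate 1 value was among the first 2.78%. The replicate 1 peak with that value, chr9:63758299-63758939, lay upstream of the printed sequence. The replicate 1 peak over the printed sequence had a value of 1.41e-07, among the first 3.88%.

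The Smad3 region with the lowest IDR of all 34 was not at the promoter. It lay 22.5 kb upstream of the start at chr9:63780207-63780777, with significance values of 1.8e-11 and 2.68e-23 and an IDR of 1.53e-05, rank 793 of 17234. Inside the gene, 5 overlap regions stood within 2735 bp (chr9:63696600-63699334), about 59 to 61 kb downstream of the start. Of these, 2 were reproducible. The stronger, chr9:63698692-63699148, had values of 9.98e-10 and 2.28e-26 and an IDR of 3.12e-05. The other, chr9:63696855-63697292, had values of 2.86e-05 and 5.48e-11 and an IDR of 0.00254. Next to it, at an IDR of 0.0775, stood a region just outside the threshold with values of 0.00473 and 1.48e-07. The fifth reproducible region, chr9:63716126-63716322, lay 41.8 kb downstream of the start and had values of 2.28e-07 and 3.07e-07 with an IDR of 0.00736. It was the exception among the 9 reproducible regions in having the smaller value in replicate 1. The 7 other Smad3 regions had IDR values between 0.0775 and 0.502. The tables used here give no exons, so the intron or exon of the inner regions is not stated.

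Few genes carried as many reproducible regions as Smad3, with 87 of 21887 protein-coding genes (0.397%) having 5 or more by the same rule. For 12 or more overlap regions the share was 0.279%. Smad3 was singled out as the Smad gene with most regions. Its window was 211 kb, beside a median of 117 kb, and these shares are not matched for gene length. The genes most like Smad3 in number of regions, lowest IDR, distance of that region from the nearer gene end and gene length were Daam2, Zhx2 and Vav2, among 5711 genes with a reproducible region. Their scaled distances from Smad3 were 0.204, 0.461 and 0.562. Each had 5 reproducible regions, and their lowest IDR values lay at 1.03e-05, 2.11e-05 and 8.33e-06.

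Smad2, the closest relative of Smad3 in the TGF-beta branch (chr18:76241090-76311748), had no reproducible region. Its only overlap region was 36.3 kb below its lower-coordinate end, with values of 0.00176 and 3.45e-04 and an IDR of 0.121. It had 3 peaks in replicate 1 and 4 in replicate 2. Inside the gene, replicate 1 had 2 peaks, at 0.0215 and 0.0398, and replicate 2 had 0. No peak of either replicate lay within 1 kb of an end of Smad2.

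The 3 transducers of BMP signals had weak or no shared signal. Smad1 (chr8:79338395-79399428, minus strand) had an overlap region inside the gene, 14.3 kb downstream of the start, with values of 0.0314 and 8.66e-05 and an IDR of 0.369. A second lay 4.44 kb upstream, at 0.0371 and 0.0143 with an IDR of 0.424. Smad5 (chr13:56703010-56742378, plus strand) had a region at its promoter, chr13:56702465-56702889, which covered 130 of the 250 bases shown above. Its values were 0.0314 and 0.00886 and its IDR was 0.105. Another overlap region in the Smad5 window, with an IDR of 0.284, was nearer to Trpc7, which encodes a cation channel. Smad9 (chr3:54755455-54801662, plus strand) had peaks near its start in both replicates that did not overlap. The replicate 1 peak lay 0.921 kb upstream at 0.0371. Those of replicate 2 lay 0.404 and 4.57 kb downstream, at 0.00245 and 0.00122. A peak within 1 kb of an end was present in each replicate at Smad5 and Smad9 and in neither replicate at Smad1, beside 16.2% of all protein-coding genes in replicate 1 and 24.7% in replicate 2.

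Smad4, the partner that both branches share (chr18:73634790-73703791), had 2 overlap regions, both above its higher-coordinate end and none inside the gene. The reproducible one, chr18:73708362-73708817, was 4.80 kb away. Its significance values were 3.82e-10 and 2.01e-20 and its IDR was 5.21e-05, lower than at any Smad region outside Smad3. The other lay 0.327 kb from the same end, at values of 0.0043 and 3.95e-06 and an IDR of 0.0635, just outside the threshold. Smad4 was the only one of the 8 genes with more peaks in replicate 1 (5) than in replicate 2 (4).

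Smad7, the inhibitor of both branches (chr18:75367365-75395935), is the shortest of the 8 genes and carried its reproducible regions at its lower-coordinate end. They lay on either side of it. The region outside the gene, chr18:75366778-75367164, was 0.394 kb from the end, with values of 2.46e-10 and 4.65e-20 and an IDR of 9.07e-04. The region inside, chr18:75367659-75367823, was 0.376 kb from it, with values of 7.76e-06 and 6.96e-10 and an IDR of 0.00344. With another overlap region of IDR 0.0617, they span 1316 bp. Within 1 kb of a gene end, Smad7 had 2 reproducible regions and Smad3 had 1, while 4.13% of all protein-coding genes had any. The 4 other Smad7 regions had IDR values of 0.102, 0.208, 0.341 and 0.410. The one at 0.102, 38.8 kb beyond the higher-coordinate end, was inside Ctif, a gene for a translation factor.

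Smad6, the inhibitor chiefly of the BMP branch (chr9:63953076-64022085, minus strand), had 8 overlap regions, of which 1 was reproducible. Counted from the strongest peaks of a single replicate, as many as there are reproducible regions, it had 3 in replicate 2 and 1 in replicate 1. That region, chr9:63958548-63958698, lay inside the gene 63.4 kb downstream of the start and 5.55 kb from the far end. Its values were 5.55e-05 and 8.31e-08 and its IDR was 0.00812. At the Smad6 promoter the replicates differed widely. The region chr9:64022083-64022374, which covered 227 of the 250 bases shown above, had a value of 3.42e-11 in replicate 2 and 0.0261 in replicate 1, and its IDR was 0.360. A region 3.69 kb downstream of the start showed the same order, with 2.06e-12 in replicate 2 and 0.0166 in replicate 1 and an IDR of 0.383. These replicate 2 values were among the first 5% of that list (4.76% and 4.22%), and the replicate 1 values stood at 49.8% and 35.9%. Tied peaks take the first rank of the tie, and 0.0261 is the value of 8.78% of replicate 1 peaks. Likewise 0.0371 and 0.0314 are the values of 18.7% and 12.7% of them, so these are coarse values shared by many peaks. Smad6 and Smad3 are neighbours on chromosome 9, and their windows did not overlap.

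Across the 34 Smad regions the value was smaller in replicate 2 in 31 (91.2%), beside 75.4% of all overlap regions. Among the reproducible ones it was smaller in replicate 2 in 8 of 9, beside 90.3% of all reproducible regions. In these 8 it was more than 100 times smaller. Reproducible Smad regions had a median width of 438 bp, beside 372 bp over all reproducible regions, and the other Smad regions 248 bp. The values of the reproducible Smad regions in replicate 1 were all at or below 5.55e-05. Those of the other 25 ran from 5.47e-04 to 0.0398. In replicate 2 the groups overlapped: 4 of the regions that did not pass, 2 at Smad6 and 1 each at Smad3 and Smad7, had smaller values than the weakest reproducible region. The Spearman rho between the replicates over the 34 regions was 0.74 and over all overlap regions 0.60, a description across regions that share their libraries.

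**Figure D3:**
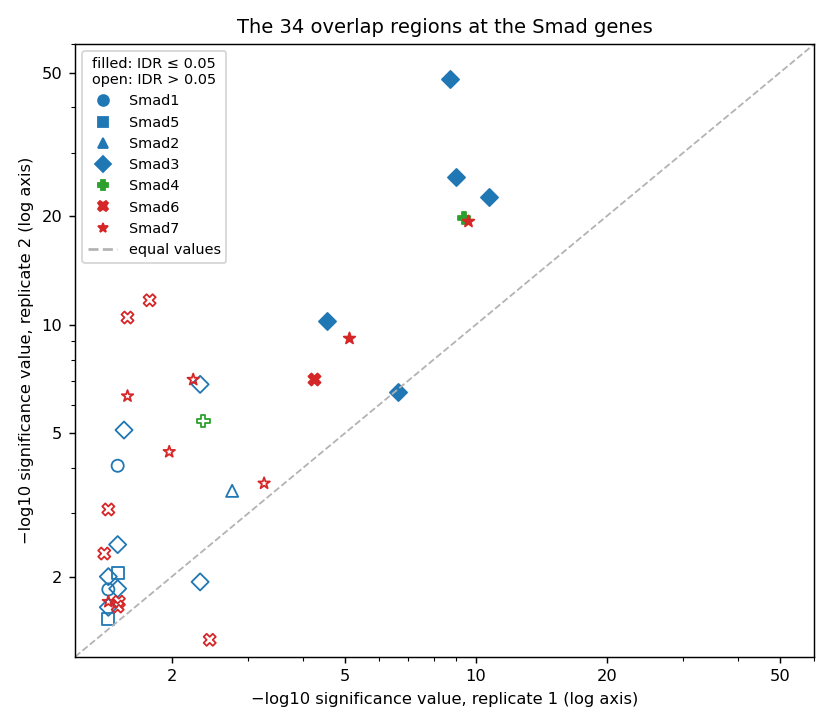
Significance values of the 34 overlap regions at the Smad genes in replicate 1 (x axis) and replicate 2 (y axis), as −log10 on log axes, where a larger number is a stronger call. Filled symbols are reproducible regions, open symbols the others, colours give the Smad class (receptor-activated blue, common green, inhibitory red) and the dashed line marks equal values. Of the 34 points, 31 lie above the line. The Smad6 promoter region is an open symbol near the left edge at about mid height, at 3.42e-11 in replicate 2 and 0.0261 in replicate 1.

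The IDR did not follow the significance values alone. The Smad5 promoter region had larger, that is weaker, values in both replicates than the Smad6 promoter region and yet the lower IDR, 0.105 against 0.360. Of the 421 pairs of Smad regions that both replicates ordered alike, the IDR gave the opposite order in 45. The sources used here do not say which peak measure was ranked for the IDR.

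Peaks in the Smad windows were found again in the other replicate as follows. Of the 59 peaks of replicate 1, 37 overlapped a peak of replicate 2 by at least 1 bp (62.7%, exact Clopper-Pearson 95% interval 49.1 to 75.0), beside 34.1% of the whole list. Of the 97 peaks of replicate 2, 35 overlapped a peak of replicate 1 (36.1%, 26.6 to 46.5), beside 30.8%. In replicate 1, 14 of 18 peaks were shared at Smad3, 8 of 13 at Smad6 and 8 of 11 at Smad7. The same count was 5 of 12 at the receptor-activated Smads without Smad3 and 2 of 5 at Smad4. The intervals cover counting error over peaks only and take peaks as independent. Neighbouring peaks can overlap the same peak of the other replicate, as 2 of replicate 1 did at chr9:63698692-63699148, so the intervals can be too narrow. In replicate 1 the median value was 0.0106 for the shared peaks and 0.0314 for the rest, and in replicate 2 it was 3.63e-05 and 0.0189. Over the whole lists these medians were 0.00938 and 0.0267 in replicate 1 and 0.00122 and 0.0161 in replicate 2. The strongest unshared peak of the Smad windows lay 11.6 kb beyond the far end of Smad6 in replicate 2, chr9:63941422-63941523, at 8.46e-05. In replicate 1 it lay 27.5 kb upstream of Smad5, chr13:56675368-56675666, at 0.00104. At this place replicate 2 had its own unshared peak, chr13:56675165-56675234, at 8.44e-04, with 133 bp between them.

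Of the other genes of the pathway, 35 of 75 (46.7%) had a reproducible region in the gene or within 50 kb, beside 26.1% of all protein-coding genes. These windows can be shared. When each region was given to its nearest gene only, 24 of 75 had a region, beside 12% of all genes. The list was chosen with earlier results of these data known, and neither share of all genes is matched for gene length. Among receptors and coreceptors, 9 of 12 had a reproducible region in the gene or within 50 kb, and 2 had one inside the gene. For several of the 9, the lowest-IDR region was nearer to another gene. The lowest IDR, 2.53e-06, belonged to a region 0.385 kb outside Acvr1b, an activin type I receptor, which was also counted for its neighbour Acvrl1. Tgfbr3, the coreceptor betaglycan, had 3 reproducible regions, and Acvr2a, an activin type II receptor, had 2. Among ligands it was 5 of 14. Bmp7 had 5 regions (lowest IDR 3.43e-07), and Bmp6 had 2, the lowest-IDR one nearer to Txndc5. Tgfb3 and Nodal had 1 each, which was nearer to another gene.

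Genes listed as ligand antagonists or as binding proteins had a reproducible region in 5 of 11 cases. Chrd (chordin), Ltbp1, Nog (noggin) and Bmper had the lowest IDR values, 4.70e-07, 0.00350, 0.00704 and 0.00806. The region at Chrd was nearer to Clcn2. Anchors, ubiquitin ligases and phosphatases acting on Smads had 5 of 12. Pmepa1, which keeps Smad2 and Smad3 from the receptor, had 3 regions, the lowest at IDR 2.79e-05, 0.0945 kb from a gene end. Nedd4l, a ubiquitin ligase, had 2 inside the gene, and the lowest-IDR regions counted for Stub1 and Hgs were nearer to other genes. Cofactors and corepressors had 6 of 14, with Tgif1, a Smad corepressor, at 3 regions (lowest IDR 3.85e-06), and Ski, Zeb1 and Ep300 at 1 each, that of Ski being nearer to Faap20. Known Smad targets had 5 of 12, with Tgfbi at 4 regions (lowest IDR 2.42e-07), Id4 at 3, Id1 at 2 and Id2 at 1. The lowest-IDR region counted for Id1 was nearer to H13.

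**Figure D4:**
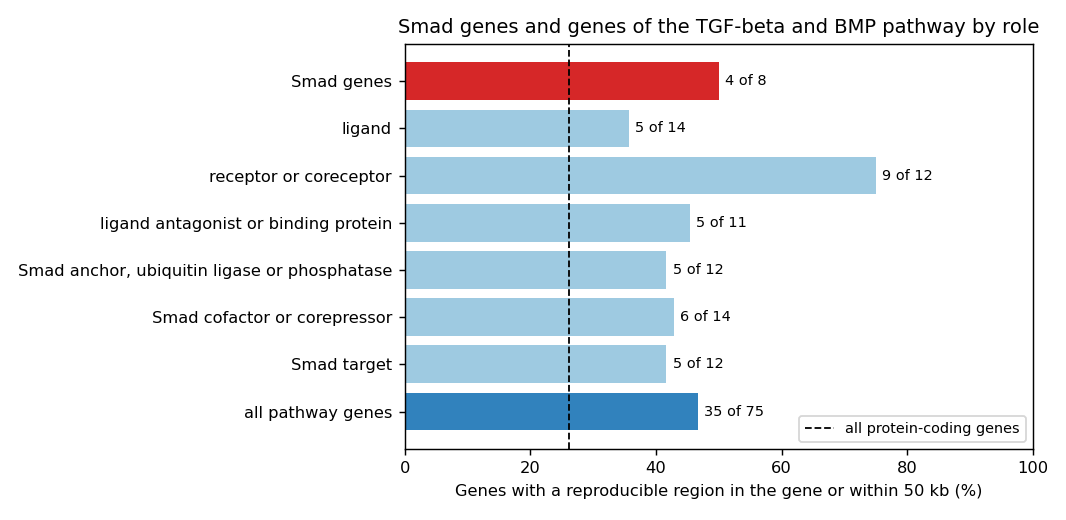
Share of genes with a reproducible WT1 region in the gene or within 50 kb (x axis, percent), for the Smad genes (red) and for genes of the TGF-beta and BMP pathway by role (light blue) and together (dark blue), with the number of genes beside each bar. The dashed line is the share over all protein-coding genes, 26.1%, and the Smad genes stand at 50%, with 4 of 8.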

How the data were processed

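ChIP-seq peaks of 2 WT1 samples were used. Positions refer to mm10, per the submitters' processing notes. For the aligner, the peak caller and any use of IgG reads, nothing is stated in the sources used here. Both deposited replicate lists give a value per peak from 0 to 0.0499, read here as the authors' p-value or q-value, and the deposited overlap table gives a value from 5.19e-08 to 0.555, read as an IDR. Positions were made 1-based.

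Gene positions came from RefSeq genes of GRCm38.p6, and promoter sequences from the table of the same build. The members, the pathway list and the rules were chosen with earlier results of these data known. Of 75 pathway symbols, 75 matched. All Smad genes are named, with up to 4 genes per pathway role by lowest IDR and the 3 genes nearest to the Smad gene with most regions in 4 scaled measures. Regions were counted by midpoint with Python 3.11.15 and pandas 2.3.3, and the functions were tested on simulated data. Nothing was tested between groups. Alternatives were other IDR thresholds, windows, placements, overlap rules and each replicate alone.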

Additional observations from a re-analysis of the deposited data

How the results depend on the processing

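The 4 genes with a reproducible region stayed 4 at IDR thresholds of 0.01 and 0.1, with a 10 kb window, with any base in the window, by the nearest gene, and from the strongest peaks of either replicate alone (without WT1 replicate 1 or 2, 4 each). They were 3 in the gene body, 6 with a 100 kb window and 7 with all overlap regions. Of all protein-coding genes, 13.6% had a reproducible region with a 10 kb window, 12% by the nearest gene and 7.95% in the gene body. Any overlap region was present at 57% of them. For the other settings no share of all genes is given, and a wider window or looser threshold can raise it for every gene. The 9 regions became 5 in the gene body, 15 with a 100 kb window, 34 with all overlap regions, and from 11 to 13 when a replicate was left out. The ratio of inhibitory to receptor-activated regions per gene, 1.5, was 1.67 per 100 kb of window and in the gene body, but 2.5 without WT1 replicate 1 and 1.07 without WT1 replicate 2, an alternative chosen after seeing the data. The 35 pathway genes became 22 with a 10 kb window (29.3%, beside 13.6% of all genes) and 14 in the gene body (18.7%, beside 7.95%). Peaks of replicates 1 and 2 numbered 20 and 45 at a significance value of 0.01 or lower and 29 and 51 in the gene body, and those of replicate 2 numbered 64 with a 10 kb window. Their shared part was 90.0% and 57.8% at 0.01 or lower and 42.4% and 25.8% with 50% reciprocal overlap. For replicate 2 it was 46.9% with a 10 kb window. The same shares over the whole lists are not given for these settings. Of 80 counts for single Smad genes under these settings, 65 stayed within 1.5 times or at 0, and 15 moved. Those that stayed include many counts of 0, as at Smad9 in every setting, for which a ratio has no meaning. No paired analysis was possible because no values of the IgG samples were analysed here.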

Other observations

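Beyond 50 kb, the nearest reproducible regions of the Smad genes that had none in the window lay at different distances. For Smad2 it was 87.3 kb below the gene (chr18:76153536-76154089, IDR 0.00385), next to Zbtb7c, a zinc-finger gene, and a second at 99.7 kb was inside Zbtb7c (IDR 1.72e-05). For Smad5 it was 68.8 kb away, inside Tgfbi, which encodes an extracellular matrix protein induced by TGF-beta (IDR 0.0298). For Smad1 it was 308 kb away, inside Zfp827. For Smad9 it was 1230 kb away, inside Frem2, which encodes an extracellular matrix protein required for kidney formation (IDR 0.00488). Smad6 had a further reproducible region 56.5 kb above its higher-coordinate end (chr9:64078425-64078775, IDR 2.86e-04), upstream of its start and 38.5 kb from Lctl, the nearest gene.

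Promoters that overlapped a reproducible region held TCCTCC, on either strand, in 50.8% of 595 cases and the others in 28.8%, as a description over all promoters of the table, the Smad3 promoter among them.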
